A study of Mus musculus with 8 samples.

Results

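H/ACA box small nucleolar RNAs are short nuclear RNAs, here the genes whose symbol begins with Snora followed by a digit, matched with upper and lower case as written. The deposited counts list 37 such genes among 38115 genes in all. Beside them, the same files list 68 genes of the C/D box class (symbols starting with Snord) and 9 small Cajal body RNAs (Scarna). The files also hold 1004 genes with the family name in capitals (SNORA and a digit), which are outside the case-sensitive rule and are used only for comparison.

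RNA was sequenced from 8 tumors of Myc-CaP, a murine prostate cancer cell line, grown after injection of the cells into the anterior prostate lobe of male FVB mice. Primary and metastatic tumors numbered 4 each, and in each of these groups 2 came from androgen sensitive cells (Myc-CaP/AS) and 2 from castrate resistant cells (Myc-CaP/CR). The mice were intact or had been castrated surgically before injection. Myc-CaP was derived from a prostate tumor of a mouse with a prostate-driven Myc transgene, and all groups share this origin and the FVB host. Each phenotype is a line of cells, and the labels do not say which tumors grew in castrated mice, so line, phenotype and castration cannot be told apart. The site of the metastases is not given in the labels. In the text the androgen sensitive tumors of a group carry the names AS1 and AS2, the castrate resistant ones CR1 and CR2. The metastases are called matched but the labels name no partner, so equal numbers do not pair tumors. The labels do not say that each tumor came from its own mouse, so the p-values measure the spread between these 8 tumors. If matched tumors shared a mouse, the tumors of a phenotype are not all independent. The p-values between phenotypes take them as independent.

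H/ACA RNAs guide the conversion of uridine to pseudouridine, mainly in ribosomal RNA, by pairing with the target on either side of the uridine inside a pocket of each hairpin. Each RNA folds into hairpins joined by a hinge with the H box and closed by a tail with the ACA box. It is bound by dyskerin, the enzyme, with Nop10, Nhp2 and Gar1. A few members act in cleavage of the ribosomal RNA precursor instead, among them U17, also called E1, which the mouse encodes as Snora73a and Snora73b. In mammals the RNAs are cut out of introns of host genes, many of them genes of ribosomal proteins or of translation factors.

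The sequences of 9 members are shown because the differences between tumors turn on them. The first 7 were among the 8 members with the smallest p-values between phenotypes, and the last 2 are the U17 copies, which had the highest or among the highest read counts. Capitals mark the ACA box near the end and each match to the H box pattern ANANNA in the middle part of the RNA, from 35% to 65% of its length. All are written 5′ to 3′ as transcribed, from GENCODE M21 transcripts on mm10 (GRCm38).
Snora43: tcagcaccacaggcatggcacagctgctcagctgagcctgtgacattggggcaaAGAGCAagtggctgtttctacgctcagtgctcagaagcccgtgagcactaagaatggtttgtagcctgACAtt
Snora24: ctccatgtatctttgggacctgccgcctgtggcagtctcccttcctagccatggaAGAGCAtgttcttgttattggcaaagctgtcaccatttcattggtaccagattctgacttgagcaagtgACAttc
Snora15: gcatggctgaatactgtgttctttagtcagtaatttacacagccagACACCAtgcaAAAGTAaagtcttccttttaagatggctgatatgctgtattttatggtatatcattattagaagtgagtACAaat
Snora31: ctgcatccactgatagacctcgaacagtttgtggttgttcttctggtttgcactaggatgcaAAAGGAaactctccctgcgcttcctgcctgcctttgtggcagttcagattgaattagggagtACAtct
Snora69: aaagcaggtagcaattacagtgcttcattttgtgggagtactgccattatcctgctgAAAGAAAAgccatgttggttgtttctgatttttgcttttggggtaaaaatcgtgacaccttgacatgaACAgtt
Snora33: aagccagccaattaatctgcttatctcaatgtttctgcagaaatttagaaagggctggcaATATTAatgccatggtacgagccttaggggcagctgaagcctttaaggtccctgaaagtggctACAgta
Snora23: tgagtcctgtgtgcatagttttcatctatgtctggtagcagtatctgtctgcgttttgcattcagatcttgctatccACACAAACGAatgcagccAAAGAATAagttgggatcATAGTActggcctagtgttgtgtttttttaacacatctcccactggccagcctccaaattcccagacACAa
Snora73b: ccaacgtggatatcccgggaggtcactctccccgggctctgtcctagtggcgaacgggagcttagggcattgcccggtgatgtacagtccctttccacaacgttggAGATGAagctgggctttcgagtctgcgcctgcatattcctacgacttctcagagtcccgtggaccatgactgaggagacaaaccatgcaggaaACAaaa
Snora73a: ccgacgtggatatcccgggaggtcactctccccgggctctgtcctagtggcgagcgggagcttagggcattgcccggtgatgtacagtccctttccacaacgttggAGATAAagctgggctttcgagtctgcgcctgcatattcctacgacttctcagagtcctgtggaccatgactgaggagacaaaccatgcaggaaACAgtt

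Snora43 lies at chr2:26637848-26637974 on the minus strand, and no annotated gene body on that strand held it whole. Snora24 lies at chr3:123507937-123508066 on the minus strand and overlaps an exon of Snhg8, a noncoding host. Snora15 lies at chr5:129794546-129794676 on the plus strand and overlaps an exon of Cct6a, a gene named for a subunit of the TRiC chaperonin that GENCODE M21 types as a processed transcript. Snora31 lies at chr14:75847905-75848034 on the plus strand in an intron of Tpt1. The next in the list are in genes of the translation machinery or of nuclear import. Snora69 lies at chrX:37082912-37083042 on the minus strand in an intron of Rpl39. Snora33 lies at chr10:23785347-23785475 on the minus strand and overlaps an exon of Rps12. Snora23 lies at chr7:110046364-110046547 on the plus strand in an intron of the importin gene Ipo7. Snora73b and Snora73a lie at chr4:132352322-132352526 and chr4:132352775-132352979 on the minus strand, inside both Snhg3 and Rcc1.

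The box motifs matched the class named by the symbols. ACA stood within the last 10 bases of 35 of the 37 members (94.6%), against 8 of 98 annotated Snord genes (8.16%). The pattern ANANNA stood in the middle part of 34 members (91.9%), against 35.7% of the Snord genes. Both together were found in 32 members (86.5%) and in 0 of the Snord genes. Matches to so short a pattern are a description of the letters and not of a site in use.

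Snora73a and Snora73b have 205 bases each, of which 198 are identical (96.6%). Of the windows of the read length given for the total RNA libraries, 97.1% matched the other copy with up to 2 mismatches. As the authors kept reads with a single match, the split of reads between these copies is uncertain. The same holds for Snora30, Snora5c, Snora65 and Snora81, all of whose windows matched another transcript, and in part for Snora41 (65.6% of windows), Snora70 (32.4%) and Snora21 (21.6%).

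Total counts ranged from 20905806 to 91886163 per tumor. The AS tumors and primary CR1 held 61237285 to 91886163 counts, and the other 3 CR tumors held 20905806 to 40586710. Library numbers in the labels run in sequence within each phenotype, so any handling that follows them cannot be told apart from phenotype. Of the markers listed for prostate epithelium, Fkbp5 (288.5 to 554 CPM, the counts scaled to a common library size) and Krt8 (36.6 to 715 CPM) were present, whereas Krt18, Epcam, Cdh1, Tmprss2 and Pbsn were under 1 CPM in every tumor. The summed level of 5 hepatocyte markers, most of it Fgb, was 3715 to 10132 CPM in AS tumors and 95.6 to 1964 CPM in CR tumors, while the defining marker Alb was at most 3.14 CPM. As sums over each list, fibroblast markers were at 51.8 to 107 CPM, endothelial markers at 42.1 to 87.8 CPM, leukocyte markers at 185 to 446 CPM, muscle markers at 0.739 to 14.6 CPM, adipocyte markers at up to 1.24 CPM and lung epithelial markers at up to 0.455 CPM. The part of depth and of these cells in the results below was not tested. In bulk tumors, fewer cells of a type and less RNA per cell cannot be told apart.

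Primary CR1 stood apart from the other castrate resistant tumors in its Snora profile. Across the 36 members with counts, the Pearson correlation of log2 CPM between primary CR1 and each AS tumor was 0.98, and that between primary CR1 and the other 3 CR tumors was 0.77 to 0.80. The AS tumors correlated with each other at 0.98 to 0.99, the other 3 CR tumors at 0.97 to 0.99, and the latter with the AS tumors at 0.74 to 0.83. These correlations run across genes, which share each library's depth and are not independent. Primary CR1 also differed from every other tumor, AS tumors included, in other parts of its library. Mitochondrial ribosomal RNA took 2.53% of its counts, against 10.4% to 23.8% in the other tumors. Scarna genes took 0.143% of its counts, against 0.0377% to 0.0739% in the others. Primary CR1 is labelled castrate resistant and was kept in that group. The comparison of phenotypes was therefore also run without it. All 20 members called higher over the 8 tumors, described next, were among the 25 called higher in that fit. Primary CR1 was picked from the same Snora values that this fit tests. Calls and p-values without it, here and below, are therefore descriptive and no separate support.

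Snora genes took a small share of all counts, and most of that share came from 3 genes in 5 of the tumors. The share was 0.265% and 0.428% in primary AS1 and AS2 and 0.237% and 0.266% in metastatic AS1 and AS2. It was 0.552% in primary CR1, 0.276% in primary CR2, 0.307% in metastatic CR1, and the value of metastatic CR2 was 0.170%. The share was highest in primary CR1 and lowest in metastatic CR2, so the CR tumors spanned the AS tumors on both sides. As a mean it was 0.299% ± 0.0873 (SD, n = 4) in AS and 0.326% ± 0.162 (SD, n = 4) in CR tumors, and 0.380% ± 0.137 (SD, n = 4) in primary and 0.245% ± 0.0577 (SD, n = 4) in metastatic tumors, so that each pair of groups overlapped. The widest 95% Wilson interval of these shares spanned 0.00412 percentage points, which covers counting error only.

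The makeup of that share divided the tumors. Snora73a, Snora73b and Snora74a, the last also known as U19, held 79.5% to 82.5% of all Snora counts in the AS tumors and 82.6% in primary CR1. In metastatic CR2 they held 30.8%, and in primary CR2 and metastatic CR1 29.2% each. The 32 genes of at most 150 bases took 0.0368%, 0.0614%, 0.0250% and 0.0300% of counts in primary AS1, primary AS2, metastatic AS1 and metastatic AS2. In the CR tumors these short genes took 0.0647% in primary CR1, 0.136% in primary CR2, and 0.155% and 0.0761% in metastatic CR1 and CR2. The 5 longer genes took 0.212% to 0.367% in the AS tumors, 0.487% in primary CR1 and 0.0934% to 0.152% in the other CR tumors. The short genes were thus above every AS tumor in all 4 CR tumors, while the long genes were below every AS tumor in 3 of them and above in the other.

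**Figure D1:**
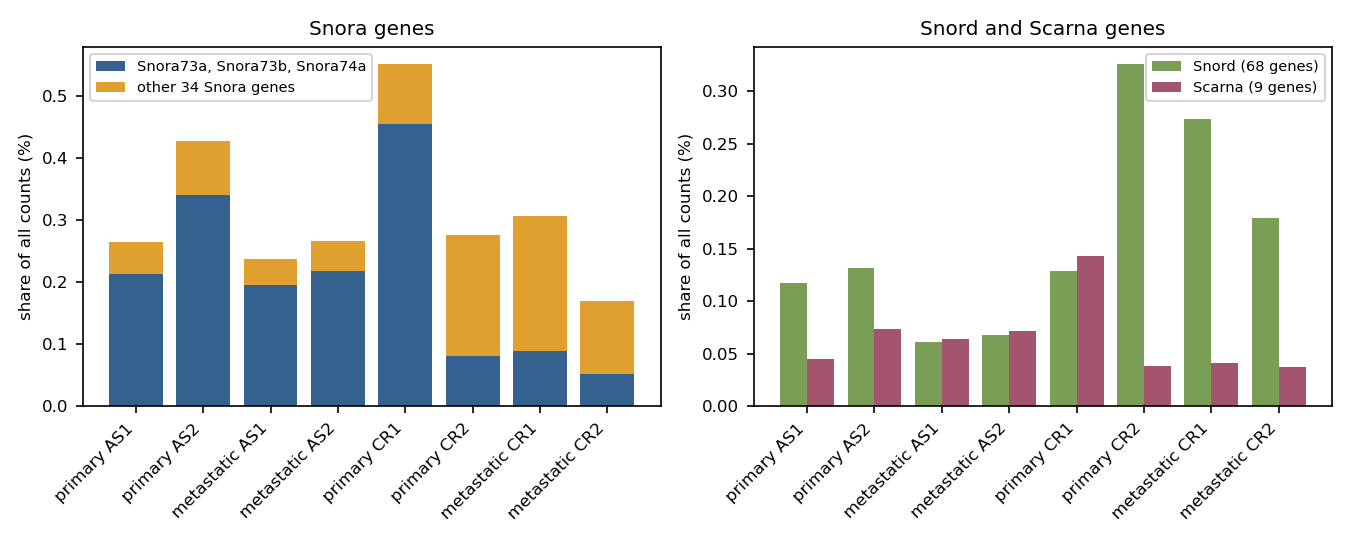
Share of all counts (%) in each of the 8 tumors, with Snora genes in the left panel, divided into Snora73a, Snora73b and Snora74a and the other 34 genes, and Snord and Scarna genes in the right panel. The 3 named genes hold 79.5% to 82.6% of the Snora bar in the AS tumors and primary CR1, and 29.2% to 30.8% in the remaining CR tumors.

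Read per length, the level of Snora73b was the highest of the family. Its mean over tumors was 5824 CPM per kilobase, followed by 2519 for Snora74a, 1653 for Snora23 and 1590 for Snora73a. The next were Snora44 at 492 and Snora33 at 489.9 CPM per kilobase, which lay close together. Genes of about 130 bases are barely longer than a read of that length, so a level per length is a rough scale here. At the other end, Snora36b, which overlaps a microRNA, had 3 to 19 counts per tumor, and Snora35, in the serotonin receptor gene Htr2c, had 0 counts in every tumor. A count of 0 allows up to 3 counts, which is 0.144 CPM in the shallowest library.

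The comparison of castrate resistant with androgen sensitive tumors asked how the members differ by phenotype. Snora levels were higher in CR tumors for most of the family. With tumor type as a covariate, 20 of 36 tested members were called higher and 0 lower at an adjusted p under 0.05 (edgeR quasi-likelihood test), where 5.66% of all 17797 tested genes were called higher and 5.72% lower. The median log2 fold change of the members was 1.86, and that of all genes was -0.01. Without a correction for the number of tests, 27 members were higher and 0 lower, where 28.2% of all genes differed, 13.8% higher and 14.4% lower. The groups did not overlap for 12 members, all higher in CR tumors, beside 8.71% of all genes higher and 9.65% lower. The exact two-sided permutation p of each is 0.0286, the smallest that 4 against 4 tumors can give. This permutation takes the tumors as independent, those called matched included.

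Snora43 had the smallest p-value in this comparison. Its level was 5.95 and 8.80 CPM in primary AS1 and AS2, 4.09 and 5.62 CPM in metastatic AS1 and AS2, 16.4 and 28.9 CPM in primary CR1 and CR2, and 32.3 and 17.7 CPM in metastatic CR1 and CR2. Every CR tumor was above every AS tumor, and primary CR1 was the lowest of the CR tumors. The log2 fold change was 1.99 ± 0.31 (SE, n = 4 and 4, edgeR adjusted p = 0.00861).

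Snora24, a guide for 18S ribosomal RNA, was at 1.79 and 2.33 CPM in the primary AS tumors and at 1.03 and 1.27 CPM in the metastatic ones. It reached 4.52 CPM in primary CR1, 17.8 in primary CR2 and, in the metastatic tumors, 16.1 in CR1 and 5.62 in CR2. The groups did not overlap, and the log2 fold change was 2.83 ± 0.50 (edgeR adjusted p = 0.0132). Snora15 rose more. Its level was 2.05, 4.36, 0.879 and 1.34 CPM in primary AS1, primary AS2, metastatic AS1 and metastatic AS2, against 6.04, 57.4, 51.2 and 20.2 CPM in primary CR1, primary CR2, metastatic CR1 and metastatic CR2. The value of primary CR1 lay near that of primary AS2, and the log2 fold change was 4.14 ± 0.76 (edgeR adjusted p = 0.0150).

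Snora31 and Snora33 were among the most changed of the abundant short genes. Snora31 was at 5.35, 5.94, 4.83 and 3.78 CPM in primary AS1, primary AS2, metastatic AS1 and metastatic AS2, and at 9.17, 155, 135 and 45.4 CPM in primary CR1, primary CR2, metastatic CR1 and metastatic CR2. Snora33 was at 8.16, 10.2, 6.81 and 4.45 CPM in the AS tumors in that order and at 11.3, 190.5, 212 and 61.7 CPM in the CR tumors. For both genes primary CR1 was just above the AS tumors and far below the other CR tumors. Their log2 fold changes were 4.13 ± 0.77 (edgeR adjusted p = 0.0155) and 4.03 ± 0.82 (edgeR adjusted p = 0.0199).

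Snora62, also known as E2, was at 4.24 to 7.02 CPM in the AS tumors, 8.96 in primary CR1, 43.0 in primary CR2, 67.6 in metastatic CR1 and 24.3 in metastatic CR2. Snora69 was at 1.22 to 4.39 CPM in the AS tumors, 5.76 in primary CR1, 35.4 in primary CR2, 42.3 in metastatic CR1 and 14.5 in metastatic CR2. Both had no overlap between phenotypes. The log2 fold changes were 2.72 ± 0.54 (edgeR adjusted p = 0.0192) for Snora62 and 3.36 ± 0.67 (edgeR adjusted p = 0.0193) for Snora69. Snora20 had the highest log2 fold change of the family, 5.58 ± 1.38 (edgeR adjusted p = 0.0348), but rested on few reads, with 4 to 16 counts in AS tumors, 17 in primary CR1, 90 in primary CR2, 797 in metastatic CR1 and 39 in metastatic CR2. Its level was 0.0572 to 0.256 CPM in the AS tumors and 0.207 CPM in primary CR1, and 4.44, 23.2 and 1.61 CPM in primary CR2, metastatic CR1 and metastatic CR2. Primary CR1 thus lay within the AS range, and the phenotypes overlapped.

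Snora28, Snora16a, Snora75 and Snora30 were likewise called higher although primary CR1 lay within the AS range. Snora28 was at 6.48 to 11.1 CPM in AS tumors, at 8.77 CPM in primary CR1 and at 57.7 to 145 CPM in the other CR tumors, a log2 fold change of 3.38 ± 0.73 (edgeR adjusted p = 0.0237). Snora16a was at 2.41 to 5.64, 4.48 and 29.5 to 77.4 CPM in the same groups, a log2 fold change of 3.66 ± 0.79 (edgeR adjusted p = 0.0241). Snora75, in the nucleolin gene Ncl, was at 0.539 to 0.945, 0.939 and 6.08 to 25.3 CPM (log2 fold change 3.96 ± 0.85, edgeR adjusted p = 0.0237). Snora30 was at 2.23 to 4.09, 3.76 and 7.98 to 23.5 CPM (log2 fold change 2.02 ± 0.53, edgeR adjusted p = 0.0432). In these genes 3 of the 4 CR tumors were above the AS tumors. Snora34, Snora65, Snora17, Snora2b and Snora41 were also called, with log2 fold changes of 1.77, 2.10, 2.34, 2.55 and 2.90. Primary CR1 lay within the AS range for Snora65 and Snora17 and above it for Snora34, Snora2b and Snora41. Snora2b rested on few reads, with 11 to 89 counts per tumor.

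Further members lay on both sides of the threshold. Snora23 was at 110 to 199 CPM in the AS tumors, 257 in primary CR1, 649.6 in primary CR2, 649 in metastatic CR1 and 318 in metastatic CR2, with no overlap and a log2 fold change of 1.75 ± 0.36 (edgeR adjusted p = 0.0206). Snora26 rose by 1.40 ± 0.38 on the log2 scale (edgeR adjusted p = 0.0466) and Snora52, in Rplp2, by 1.72 ± 0.41 (edgeR adjusted p = 0.0325). Snora3, Snora61, Snora44 and Snora81 had log2 fold changes of 1.36, 1.70, 0.41 and 0.65 and did not pass the threshold, with adjusted p from 0.0721 to 0.416. Without primary CR1, Snora3 and Snora61 were called higher (log2 fold changes 1.65 and 2.12, edgeR adjusted p = 0.0225 and 0.00794).

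The 4 members with a negative fold change were the 3 dominant genes and Snora78. Snora73b was at 1294, 1923, 1117 and 1175 CPM in primary AS1, primary AS2, metastatic AS1 and metastatic AS2, and at 2639, 559, 579.6 and 264 CPM in primary CR1, primary CR2, metastatic CR1 and metastatic CR2. Snora73a followed the same order, with 357, 555, 317 and 326 CPM in the AS tumors and 679.5, 150.5, 153 and 70.1 CPM in the CR tumors. Snora74a was at 445, 859.5, 494.5 and 474 CPM in the AS tumors and at 953, 279.6, 328 and 117 CPM in the CR tumors. In all 3 genes primary CR1 was the highest of the 8 tumors and the other CR tumors were below every AS tumor.

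None of these genes passed the test over all tumors. The log2 fold changes were -0.83 ± 0.51 for Snora73a, -0.72 ± 0.52 for Snora73b, -0.60 ± 0.47 for Snora74a and -0.84 ± 0.52 for Snora78, with edgeR adjusted p from 0.316 to 0.439. Without primary CR1, Snora73a and Snora73b were called lower (log2 fold change -1.57, adjusted p = 0.00811, and -1.49, adjusted p = 0.0104), beside 12.6% of all genes called lower in that fit, and Snora74a was at -1.17 (adjusted p = 0.0554). Snora78 lies opposite Rps2 and the U17 copies lie opposite another annotated gene.

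**Figure D2:**
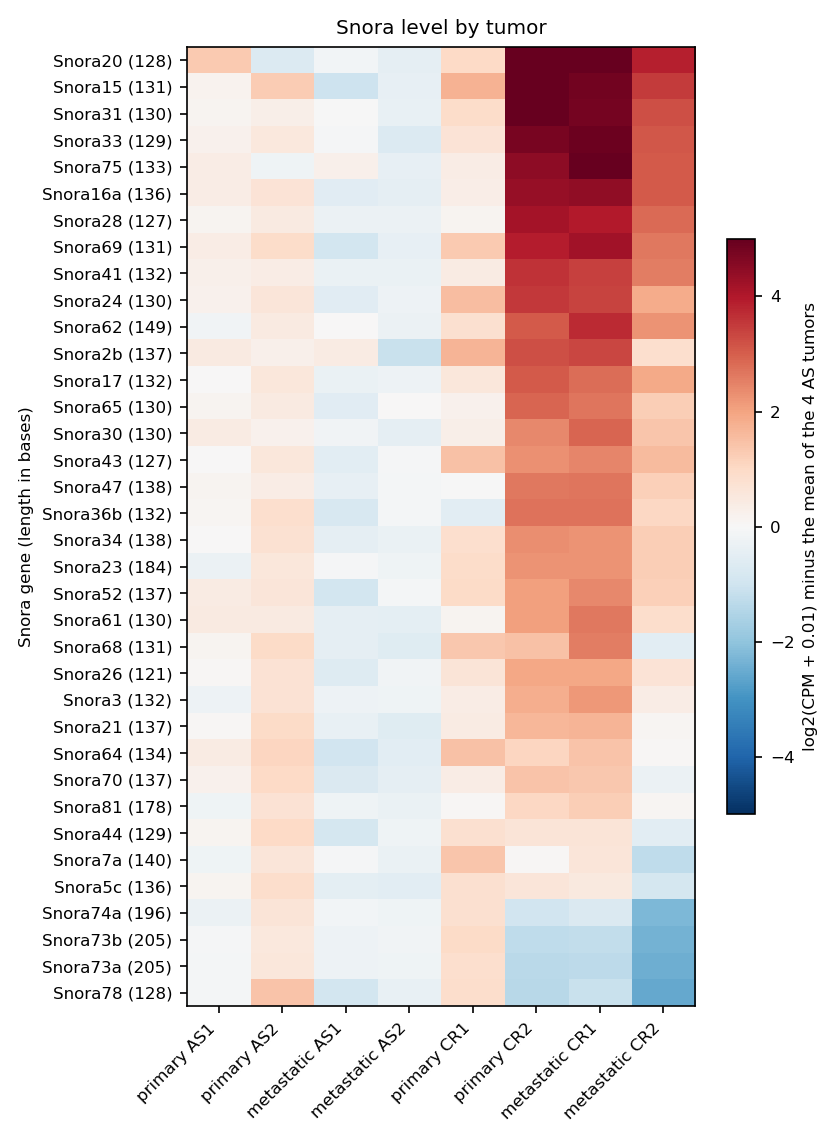
Level of each Snora gene in each of the 8 tumors, as log2(CPM + 0.01) minus the mean of the 4 AS tumors, with the length in bases beside the gene. Primary CR2, metastatic CR1 and metastatic CR2 are raised together for most short genes, and primary CR1 resembles the AS tumors.

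Leaving out primary CR1 raised the number of members called higher to 25, beside 8.97% of all genes, with a median of 2.16. The other 3 CR tumors were all above the AS range for 22 of 36 members, beside 15.0% of all genes, and all below it for 4, beside 19.9%. Primary CR1 itself was inside the AS range for 18 members, beside 37.2% of all genes, and above it for 18. Among the 25 members called higher without it, primary CR1 was nearer to the other CR tumors than to the AS tumors for 4. The same count was 21 of 146 other small RNA genes of at most 150 bases, 3 of 15 Snord genes and 600 of 1065 protein-coding genes called higher in that fit. Of the protein-coding genes called lower, it was 698 of 2027. Among the Snord and other short small RNA genes called higher in that fit, primary CR1 was thus also mostly on the side of the AS tumors. Longer small RNA genes outside the Snora and Snord lists were not part of this count.

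The number of calls, among members and among all genes, differed between fits that left out 1 tumor each. The number of members called higher was 5 without primary AS1 and 7 without primary AS2, beside 1.87% and 1.42% of all genes called higher in those fits. It was 1 without metastatic AS1 and 1 without metastatic AS2, beside 1.04% and 1.07% of all genes. Among the CR tumors it was 2 without primary CR2, 6 without metastatic CR1 and 16 without metastatic CR2, beside 2.42%, 1.62% and 3.13% of all genes. The median log2 fold change was 1.46 to 2.16 over these 8 choices, primary CR1 included. Within primary tumors alone the median was 1.38 with 0 members called (beside 4 of all genes called in that fit), and within metastatic tumors alone it was 2.39 with 16 called (beside 467 of all genes called higher).

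**Figure D3:**
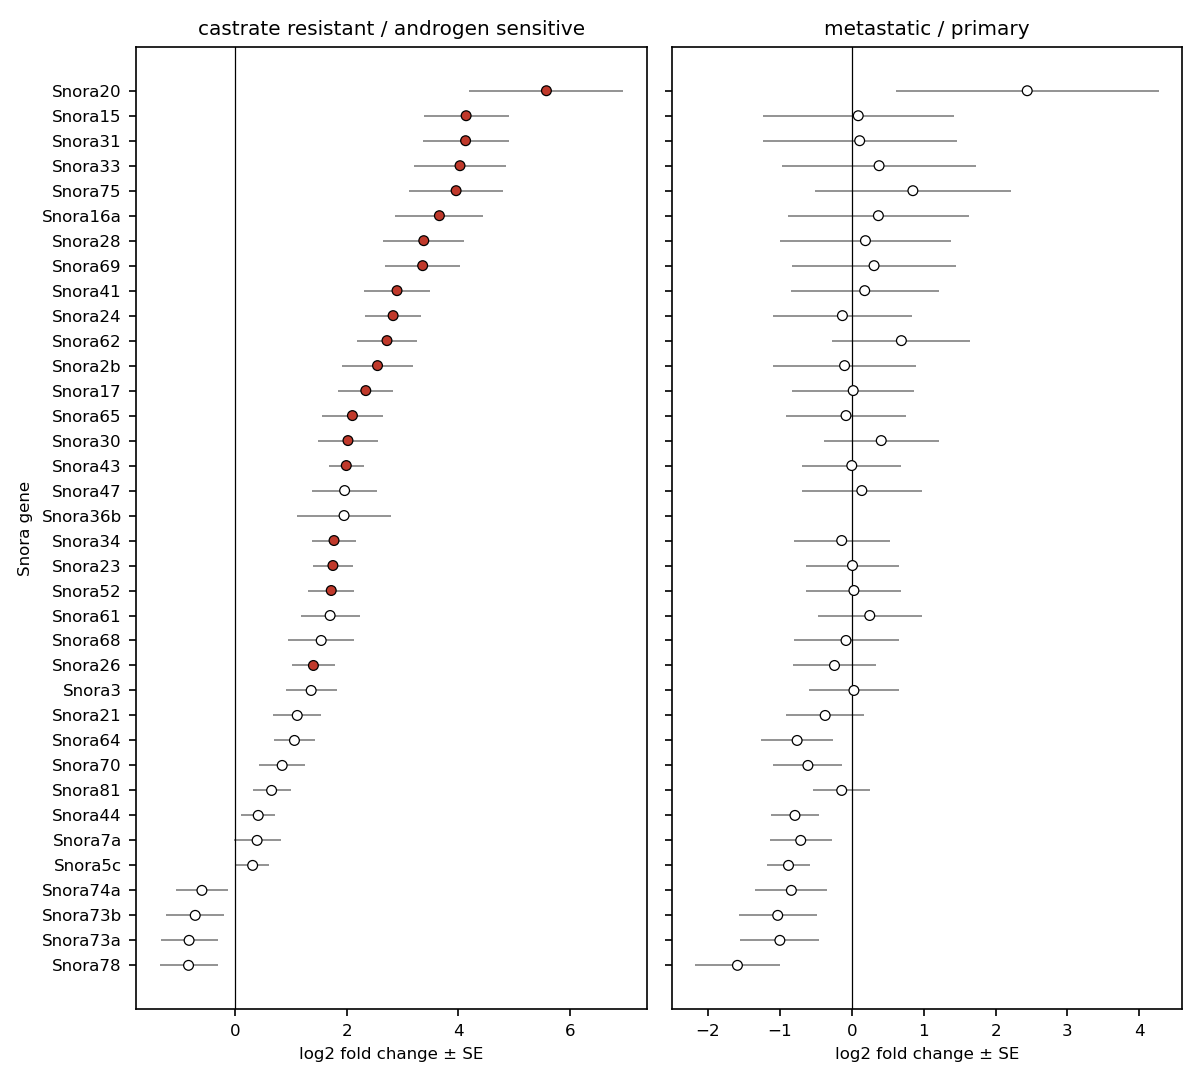
Log2 fold change with its standard error for each Snora gene in the comparison of phenotypes and in the comparison of tumor types. Most genes lie right of 0 between phenotypes, with a median of 1.86, and around 0 between tumor types, with a median of -0.00.

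Within the family the difference went with length, base content and level. Of the 31 tested members of at most 150 bases, 19 were called higher and the median log2 fold change was 1.99. Of the 5 longer members, Snora23 was called and the median was -0.60. Over 36 members the correlation of the log2 fold change with length was r = -0.53 (Spearman's rho -0.41), with GC content r = -0.61 (rho -0.56) and with the mean log2 CPM in AS tumors r = -0.73 (rho -0.78). The last shares the AS values with the fold change. Among the short members alone it was -0.66 for GC content and -0.13 for length. Without primary CR1 the correlations were -0.57 with length and -0.62 with GC content. These are descriptions across genes of the same libraries.

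Several other small RNA types were also higher in CR tumors, and others were not. Of 93 tested genes with SNORA in capitals, 45 were called higher and 0 lower, with a median log2 fold change of 1.52. The 29 tested Snord genes had 9 called higher, 0 lower and a median of 1.90. The 140 tested snoRNA-type genes of at most 150 bases outside the Snora list, which overlap both of these groups, had 59 called higher and a median of 1.8. Genes of the 5S ribosomal RNA type had a median of 3.70 with 44 of 53 called, and spliceosomal snRNA-type genes of at most 150 bases a median of 2.03 with 11 of 20 called. Over 150 bases, the 39 tested snRNA-type genes had a median of 1.67 with 20 called higher. The 14 tested snoRNA-type genes of that length outside the Snora list had a median of 0.57 with 4 called higher. Many of the 5S and snRNA copies are near-identical, so their values are not independent. By contrast, the 19 tested microRNA genes of at most 150 bases had a median of -0.37 with 0 called and 7 positive. The 24 tested genes of over 150 bases typed as miscellaneous RNA had a median of -0.32 with 0 called, and the 3 ribozyme-type genes one of -0.64 with 0 called. Without primary CR1 the medians were 1.73 for the genes with SNORA in capitals, 3.11 for Snord, 4.27 for the 5S type and -0.77 for the microRNAs. Protein-coding genes had a median of -0.04. The 3 CR tumors with raised short RNAs were also the 3 shallowest libraries, and the part of depth in the result was not tested.

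**Figure D4:**
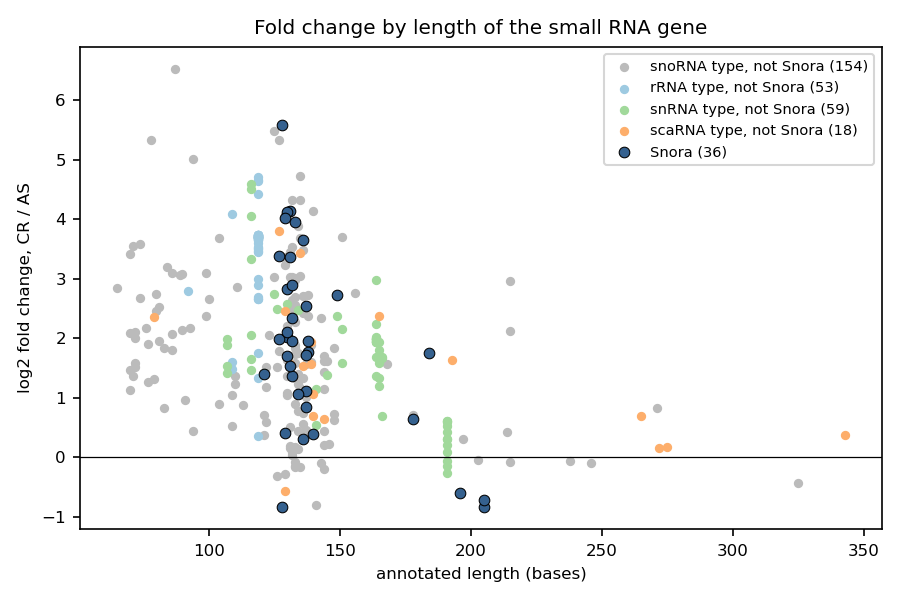
Log2 fold change of CR over AS tumors against annotated length in bases, up to 400 bases. Shown are the 36 tested Snora genes and other tested genes of the snoRNA, 5S, snRNA and small Cajal body RNA types. MicroRNA genes and the remaining small RNA types are not drawn. Most short genes of the snoRNA, snRNA and 5S types lie above 0. The Snora genes over 150 bases, other than Snora23 and Snora81, lie below 0.

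The comparison of metastatic with primary tumors, a contrast the study also made, called no member. The paper used DESeq, gave fewer primary tumors than the labels do, and reported differentially expressed genes between these groups. The result here comes from another test and another number of tumors. None of 35 tested members passed an adjusted p of 0.05, and none of 17104 genes did (edgeR quasi-likelihood test, tumor type as the only term). At an unadjusted p under 0.05, 3 members were lower in metastases and 0 higher, where 2.68% of all genes differed, 1.12% lower and 1.56% higher. The median log2 fold change was -0.00 for the members and -0.03 for all genes. The groups overlapped for every member, beside 0.819% of all genes higher and 0.900% lower without overlap.

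Those 3 members were Snora5c, Snora78 and Snora44. Snora5c was at 22.2 and 36.6 CPM in the primary AS tumors, 35.2 and 30.3 CPM in the primary CR tumors, 14.2 and 14.1 CPM in the metastatic AS tumors and 28.0 and 11.0 CPM in the metastatic CR tumors. Metastatic CR1 was above primary AS1, so the groups overlapped. The log2 fold change was -0.88 ± 0.30 (edgeR unadjusted p = 0.0169). Snora78 was at 23.7, 67.3, 47.2 and 9.81 CPM in primary AS1, AS2, CR1 and CR2, and at 13.3, 19.5, 11.8 and 4.34 CPM in metastatic AS1, AS2, CR1 and CR2, a log2 fold change of -1.59 ± 0.59 (edgeR unadjusted p = 0.0234). Snora44, one of 3 members in Snhg12, was at 55.1, 99.6, 88.5 and 79.3 CPM in primary tumors and at 27.3, 43.1, 79.7 and 35.2 CPM in metastatic tumors in that order, a log2 fold change of -0.79 ± 0.34 (edgeR unadjusted p = 0.0418).

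The dominant genes had lower values in metastases without passing the test. The log2 fold changes were -1.0 ± 0.55 for Snora73a, -1.03 ± 0.54 for Snora73b and -0.84 ± 0.50 for Snora74a (edgeR unadjusted p = 0.098, 0.0897 and 0.123). On the other side, Snora20, Snora75 and Snora62 had the highest values, 2.44 ± 1.83, 0.85 ± 1.36 and 0.69 ± 0.96, followed by Snora30, Snora16a and Snora61 at 0.41, 0.37 and 0.25. Of these 6, only Snora20 had a difference above its SE, and metastatic CR1 was by far its highest tumor. Without metastatic CR1 its value was -1.09, and with phenotype as a covariate Snora16a and Snora61 turned to -0.26 and -0.15. The median of the members was -0.92 without metastatic CR1 and 0.78 without primary CR2, so its sign rested on these libraries.

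Among AS tumors alone, all 34 tested members had a negative log2 fold change, from -1.51 to -0.16. Their median was -0.62, with 0 members called and a median of 0.00 over all genes. Other small RNAs had negative values too, with medians of -1.06 for 26 Snord genes (1 positive), -0.59 for 88 genes with SNORA in capitals (14 positive) and -0.87 for 51 genes of the 5S type (0 positive). Both AS metastases were below both AS primary tumors for 27 of the 36 members, beside 18.9% of all genes, and primary AS2 was the highest AS tumor for 31, beside 20.7%. Within the CR tumors, both metastases were below both primary tumors for 1 member, beside 17.8% of all genes, and above for 0, beside 12.7%. The median in CR tumors alone was 0.17, again with 0 called. Metastatic CR2 was the lowest of the 3 CR tumors other than primary CR1 for all 36 members, beside 38.8% of all genes.

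Whether the difference between metastatic and primary tumors depends on phenotype was tested by an interaction term. It called 0 of 36 members and 0 of 17797 genes, and 0 members had an unadjusted p under 0.05, where 2.79% of all genes did, 1.21% in the positive and 1.57% in the negative direction. The median interaction on the log2 scale was 0.85. The smallest p-values belonged to Snora52, with an interaction of 1.28 ± 0.70, Snora64, in Rps2, with 1.12 ± 0.66, and Snora61, in Snhg12, with 1.52 ± 0.93, and the adjusted p of each was 0.956 (edgeR quasi-likelihood test). The unlike directions within AS and within CR tumors therefore did not pass the test of their difference. Each of the 4 groups of this test holds 2 tumors.

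Host genes changed less than the Snora genes inside them. GENCODE M21 placed 35 of the 37 members whole inside a gene on the same strand, and the other 2, Snora17 and Snora43, had no such host. Of 29 host genes listed in the counts, 27 were tested between phenotypes. Of these, 4 were called higher and 0 lower, beside 5.66% and 5.72% of all genes. The median log2 fold change of the hosts was 0.34 (range -0.76 to 0.97). Those called were Cct6a (0.72, edgeR adjusted p = 0.0156), Ipo7 (0.88, adjusted p = 0.0228), Rpl12 (0.97, adjusted p = 0.0128) and Rpl39 (0.92, adjusted p = 0.0306). The fold change of the member was above that of its host in 27 of 30 pairs. Without primary CR1, 7 hosts were called higher, these 4 among them, and 3 lower, Snhg3, Rcc1 and Rab3gap2. In that fit 8.97% of all genes were called higher and 12.6% lower, and the lower hosts were near that share. The median of the hosts was 0.35, and the member was above its host in 26 pairs. As many members overlap an exon of some host transcript, and as the counting rule is not given, reads of host RNA may be part of a member's count.

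Examples span the kinds of host. Snora31 differed by 4.13 and its host Tpt1, the translationally controlled tumor protein gene, by 0.67 (adjusted p = 0.0703). Snora33 differed by 4.03 and Rps12 by 0.34, and Snora20 by 5.58 and the chaperonin gene Tcp1 by 0.14. Snora73b and its host Snhg3 were close, at -0.72 and -0.76. By class of host, 5 of 11 members in ribosomal protein genes were called higher (median 1.54), 9 of 13 tested in other protein-coding genes (median 2.02), 4 of 10 in hosts not typed as protein-coding (median 0.91) and both members without a host (median 2.16). Sharing a host did not mean sharing a level of change: of the members in Snhg12, Snora16a differed by 3.66, Snora61 by 1.70 and Snora44 by 0.41.

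**Figure D5:**
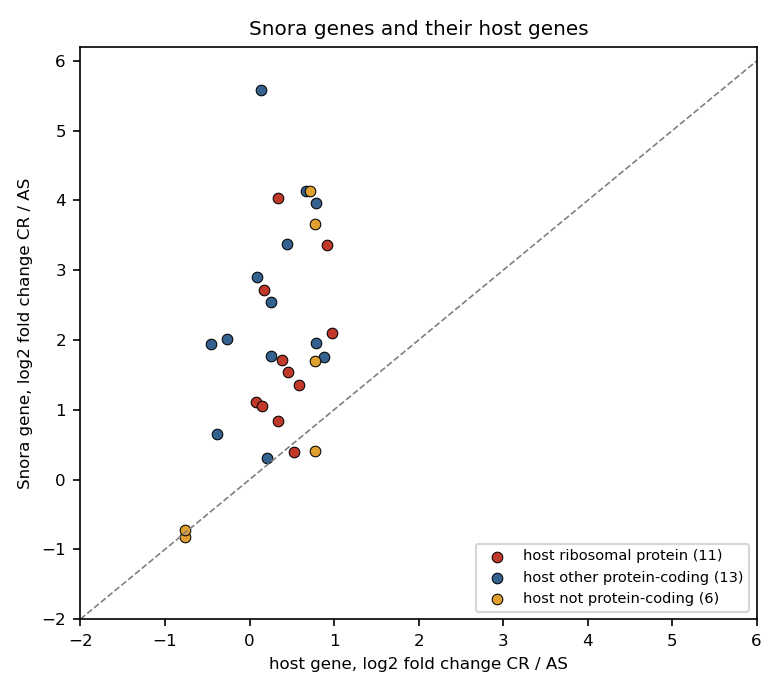
Log2 fold change of CR over AS tumors of each Snora gene against that of its host gene, for 30 pairs, colored by the class of host, with the line of equal change dashed. In 27 pairs the Snora gene lies above the line, and the host genes stay between -0.76 and 0.97.

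Among the proteins that form or serve the H/ACA particle, 5 of 29 were called higher and 1 lower in CR tumors, beside 5.66% and 5.72% of all genes. None was called between tumor types. Dkc1, which encodes dyskerin, was at 29.9, 48.5, 63.4 and 50.8 CPM in primary AS1, primary AS2, metastatic AS1 and metastatic AS2, and at 111, 75.6, 130.5 and 84.9 CPM in primary CR1, primary CR2, metastatic CR1 and metastatic CR2, a log2 fold change of 1.08 ± 0.23 (edgeR adjusted p = 0.0242). Gar1 was at 8.78 to 11.6 CPM in AS tumors and at 13.9, 30.7, 34.6 and 36.9 CPM in the CR tumors in that order, a log2 fold change of 1.44 ± 0.25 (edgeR adjusted p = 0.0120). For both genes every CR tumor was above every AS tumor, and primary CR1 was the lowest CR tumor for Gar1 but not for Dkc1.

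The other core proteins did not follow. Nop10 fell by 0.91 on the log2 scale (SE 0.17, edgeR adjusted p = 0.0164), from 104 to 152 CPM in AS tumors to 49.9 to 95.3 CPM in CR tumors. Nhp2 had a log2 fold change of 0.02 ± 0.17. The remaining calls were Dis3, a nuclease of the RNA exosome (0.74 ± 0.15, edgeR adjusted p = 0.0189), Pus7, a stand-alone pseudouridine synthase (0.78 ± 0.16, adjusted p = 0.0232), and Ruvbl1, an assembly factor (0.78 ± 0.17, adjusted p = 0.0249). Of 8 tested Scarna genes, Scarna3b and Scarna8 were called higher, both at 1.57 (edgeR adjusted p = 0.0263 and 0.0458). The number called lower was 0, and the shares of all genes were again 5.66% higher and 5.72% lower. The telomerase RNA, which has an H/ACA domain, is listed as Telomerase-vert, and its log2 fold change of 1.42 did not pass the test (edgeR adjusted p = 0.218). It was at 4.32 to 8.07 CPM in the AS tumors, 45.5 in primary CR1, and 4.63, 12.1 and 6.65 in primary CR2, metastatic CR1 and metastatic CR2, so that primary CR1 was by far the highest, and without it the log2 fold change was 0.22 (adjusted p = 0.546).

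Without primary CR1, 8 of the 29 proteins were called higher and 4 lower, beside 8.97% and 12.6% of all genes in that fit. The 6 called over all tumors were among them, with log2 fold changes of 1.65 for Gar1, 0.91 for Dkc1, 0.69 for Dis3, 0.61 for Pus7, 0.61 for Ruvbl1 and -1.03 for Nop10. The further calls were Exosc10 (0.58), another exosome nuclease, Pus10 (0.58) and Nolc1 (0.48) higher, and Pus1 (-0.73), Rpusd4 (-0.55) and Wrap53 (-0.95) lower. Of the Scarna genes, Scarna3b, Scarna8 and Scarna17 were higher and Scarna10 (-0.99) was lower.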

How the data were processed

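RNA was extracted with TRIzol from 8 tumors, and sequenced. The paper's methods describe stranded total RNA libraries, depleted of ribosomal RNA and sequenced as paired reads, and also size-selected small RNA libraries. The labels give total RNA and a standard protocol and name no kit, and which preparation gave these counts is otherwise not given in the sources used here. The authors mapped reads to mm10 with Bowtie, kept those with a single match and up to 2 mismatches, and deposited raw counts per gene, not normalized. The submitters' processing notes name CASAVA 1.8.2, TopHat2 2.0 and GRCm38. The counting tool and annotation release are not given in the sources used here.

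The main tests used edgeR 4.0.16 in R 4.3.3 (TMM factors, filterByExpr, glmQLFit and glmQLFTest, Benjamini-Hochberg over all genes tested, threshold 0.05). The comparison of tumor types had type as the only term (17104 genes), that of phenotypes had type as a covariate (17797 genes), and the interaction had both terms. CPM is the count divided by the TMM effective library size and scaled to a common total. DESeq2 1.42.0 was an alternative. Of 38115 identifiers, 36343 were in GENCODE M21, used for location, length and sequence. Other alternatives were RLE factors, protein-coding genes alone for scaling, no low-count filter, other covariates, subsets, each possible pairing as a block and each tumor left out. Total counts were 20905806 to 91886163 per tumor. Exact permutation tests were two-sided. The fits were tested on simulated data with known changes.

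Members named were the 10 most abundant, the 6 with the smallest p in each direction of each comparison, the 3 with the smallest interaction p, and the U17 copies; others named were chosen after their values were seen. The members and lists were chosen with earlier results of these data known. The paper gives 3 primary tumors and the labels 4, and the labels were followed. A few markers and a sequence are not reported here. Figures were drawn with matplotlib 3.10.9.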

Additional observations from a re-analysis of the deposited data

Results flagged for a closer look

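In groups of 4, a tumor was singled out where its gap to the nearest other tumor, divided by the range of the group, exceeded Dixon's critical value at the 95% level. Over 124 groups examined, 16 values were singled out. Chance gives about 1 in 20 for independent groups of alike tumors. These groups share the same tumors, and the primary and metastatic groups mix phenotypes, so the number cannot be read against that rate.

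In the primary group the tumor was primary CR2 for 8 values. Its log2 CPM was 6.18 for Snora16a, 7.18 for Snora28, 4.03 for Snora30, 7.28 for Snora31, 7.57 for Snora33, 6.12 for Snora61 and 4.01 for Snora75, each above the other 3 primary tumors, primary CR1 included. Its share of counts on Snord genes was 0.326%, against 0.117% to 0.132% in the other primary tumors.

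In the AS group the tumor was primary AS2 for 5 values. Its log2 CPM was 5.6 for Snora3, 9.75 for Snora74a and 5.91 for Snora81, its share of counts on Snora genes was 0.428%, and its share on Snora genes over 150 bases was 0.367%. In the CR group, metastatic CR2 was low for Snora44 at 5.14 on the log2 CPM scale. Primary CR1 was high in the CR group for the share on Snora genes over 150 bases, at 0.487%, and for the share on Scarna genes, at 0.143%.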

How the results depend on the processing

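The comparison of phenotypes kept its direction under every alternative run: the median log2 fold change of the members was 1.38 to 2.39. The number of members called was less stable. It was 1 to 25 higher and 0 to 2 lower with each tumor left out, 0 higher in primary tumors alone, and 27 higher and 3 lower (Snora73a, Snora73b and Snora78) with every gene of at least 1 count, beside 4.15% and 5.57% of all genes. DESeq2 called 26 higher, beside 10.7%. RLE factors or scaling by protein-coding genes called 20 higher each, beside 6.34% and 6.42% of all genes. The interaction called 0 members, or 1 with every gene of at least 1 count, beside 0.439% of all genes in that direction. The subsets and the fits with a tumor left out hold fewer tumors, and the cause of these differences was not tested.

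Between tumor types 0 members were called under every alternative. The median was -0.92 to 0.78 with each tumor left out. For Snora16a, Snora20, Snora30, Snora61, Snora62 and Snora75 the sign turned without metastatic CR1, to -0.90, -1.09, -0.66, -0.85, -0.47 and -0.88, where the highest values with a tumor left out were 2.56, 5.2, 1.29, 0.92, 1.93 and 3.32. It turned in AS tumors alone for Snora16a (-1.01), Snora30 (-0.61), Snora61 (-0.89), Snora62 (-0.28) and Snora75 (-0.16), and with phenotype as a covariate for Snora16a (-0.26) and Snora61 (-0.15). The pairing is not given. With a replicate block for each of the 4 possible pairings, 0 members were called and the median was -0.34 to -0.22. Snora16a (-0.18), Snora30 (-0.02) and Snora61 (-0.26) turned sign under 2 of these pairings, and Snora61 also under the others (-0.13). Over the pairings Snora20 was at 0.49 to 1.42, Snora75 at 0.43 to 0.75 and Snora62 at 0.28 to 0.4. Without a block these were at 2.44, 0.85 and 0.69.

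For most members the counts are deep enough for counting error to be small beside the spread between tumors. But Snora36b had 3 to 19 counts per tumor, Snora2b 11 to 89, and Snora20 4 to 17 in 5 tumors. The 4 tumors a group also limit the tests. Results on Snora73a, Snora73b, Snora30, Snora5c, Snora65 and Snora81 are limited by shared sequence.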
